A study of Homo sapiens with 4 samples.

Results

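Growth factors of the EGF family, the ERBB receptors that bind them and the best known inhibitors of those receptors were followed through an NSUN2 knockdown in T24 cells. These are 10 genes, the rows of the deposited table whose current or older symbol is EGFR, ERBB2, ERBB3, HBEGF, TGFA, AREG, EREG, NRG1, ERRFI1 or LRIG1, out of 62893 genes in all. Each symbol matched 1 Ensembl ID. The study sequenced poly(A) RNA of T24, a human bladder carcinoma cell line known to carry an activated HRAS gene. There were 2 libraries treated with siRNA against NSUN2 (siNSUN2) and 2 treated with control siRNA (siControl), and the study's design text calls the controls wild type. The labels give neither the sequence or number of the siRNAs nor the time of treatment. They do not tell whether each replicate was a culture of its own. The p-values thus set the group difference only against the variation among these libraries, and that variation may be technical. NSUN2 encodes an RNA methyltransferase that makes 5-methylcytosine.

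EGF-type ligands are made as membrane-bound precursors and are cut loose by ADAM proteases. They bind ERBB receptors, which pair up, phosphorylate each other and pass the signal to RAS and ERK, to PI3-kinase and to other routes. ERRFI1 and LRIG1 are feedback inhibitors of the receptors, and urothelial cells are known to respond to and to produce several of the ligands.

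Library totals ran from 33633249 to 215936965 counts, and values are given as CPM, counts scaled to the library size with TMM factors, and 1 CPM stood for 34.2 to 213 counts. NSUN2 stood at 29.6 and 30.1 CPM in siNSUN2 libraries, against 281 and 284 CPM in siControl libraries. The epithelial keratin genes KRT7, KRT8 and KRT18 were at 108 to 633 CPM in every library, whereas KRT19, EPCAM and CDH1 were below 0.1 CPM in all. Of 8 luminal urothelial markers 5, and of 5 basal markers 4, were below 1 CPM in every library, and UPK3A was at 0. The other luminal markers were PPARG (13.7 to 23.5 CPM), FOXA1 (5.78 to 6.77 CPM) and UPK1B (1.62 to 4.18 CPM). The other basal marker, CD44, was high, at 1097 to 1242 CPM. Most markers of urothelial differentiation were thus absent or close to it, and the label was taken as the name of a cell line only.

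Of the 10 genes, all 10 were tested, 6 rose, 3 fell and 1 (NRG1) did not pass the test at an adjusted p of 0.05 (edgeR quasi-likelihood test, adjusted over 16889 genes). Among all genes tested, 52.6% were called, 27.1% as higher in siNSUN2 and 25.5% as lower. The receptor gene EGFR and the ligand gene TGFA fell, the ligand gene HBEGF rose to 2.04 times its siControl level, and ERBB2, ERRFI1, AREG, EREG and LRIG1 rose, while ERBB3 fell by a small amount. The median log2 fold change (siNSUN2 over siControl) was 0.36 for the 10 genes and 0.026 for all genes tested. CPM values of the groups did not overlap for any of the 10 genes, NRG1 included, but the same was true of 74.6% of the genes tested, so the lack of overlap sets these genes little apart. With any 1 library left out, all 10 genes kept the sign of their log2 fold change. Some calls were then lost, as given below for the genes concerned.

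**Figure D1:**
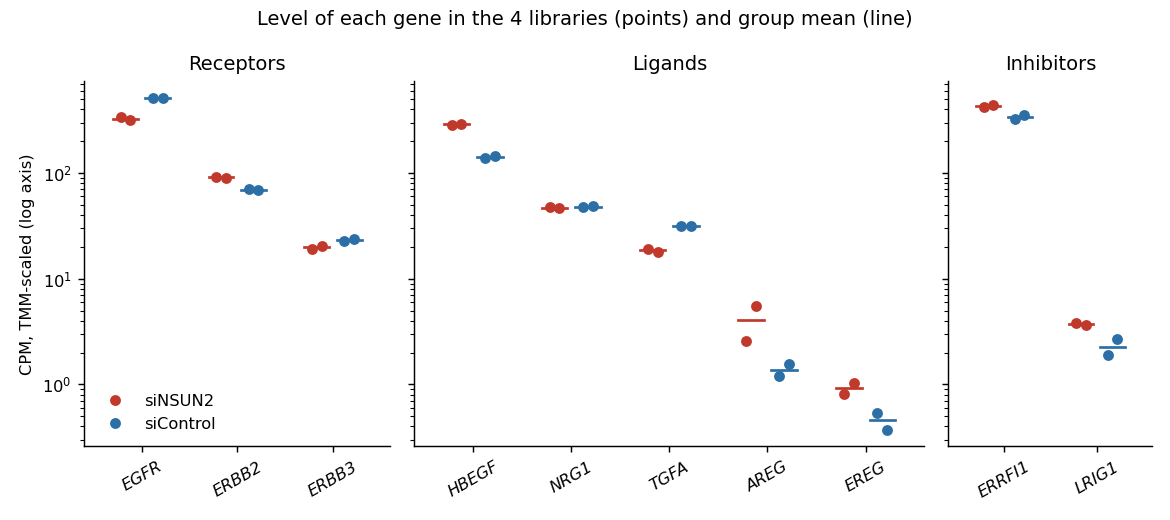
CPM of each gene in each library on a log axis (points, siNSUN2 in red, siControl in blue) with the group mean (line), by role. EGFR, ERRFI1 and HBEGF are the highest, AREG, EREG and LRIG1 at a few CPM or below, and the AREG points of siNSUN2 lie widest apart, at 2.59 and 5.49 CPM.

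EGFR (ENSG00000146648), the receptor of TGFA, AREG, EREG and HBEGF, had the highest level of the receptors. It was measured at 336 and 317 CPM in siNSUN2 libraries, against 512 and 516 CPM in siControl libraries. Both siNSUN2 libraries lay well below both controls, and the drop was far larger than the spread within a group. The log2 fold change was -0.65 (SE 0.042, adjusted p = 1.71e-06), which is 0.636 of the siControl level. As in any bulk sample, fewer cells of a type and less RNA per cell cannot be told apart. The antisense gene EGFR-AS1, whose exons overlap those of EGFR, held 2 and 0 counts in siNSUN2 libraries and 6 and 41 counts in siControl libraries, against 10866 to 109804 counts of EGFR.

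The 3′ UTR of EGFR contains the 6-base word ACCCTA, which earlier results on these libraries had connected with lower transcript levels, and its sites are shown for that reason. Among the 12572 genes tested with an annotated 3′ UTR, 23.0% hold the word. The 2895 genes with it had a median change of -0.16 on the log2 scale and a median 3′ UTR of 3001 bases. The 9677 without it had a median of 0.092 and a 3′ UTR of 1342 bases. The word was picked from these same libraries, so these medians repeat that choice and are no separate evidence. Of the 10 genes, 4 have the word in their longest 3′ UTR (EGFR, TGFA, ERRFI1 and NRG1), and they went different ways: EGFR and TGFA fell, ERRFI1 rose and NRG1 did not pass. The 3′ UTR of EGFR is the longest of the 10, at 6011 bases, and holds 4 copies, at bases 2090, 2764, 4742 and 5541. Those of TGFA and ERRFI1 hold 1 copy each, at base 487 of 3579 and at base 493 of 1843. The sites are given as DNA letters of GENCODE 29 transcripts, 5′ to 3′, with the word in capitals.

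EGFR, base 2090: aggtcagtcACCCTAaacaacctg
EGFR, base 2764: ggccttaatACCCTAcagaaagcc
EGFR, base 4742: ggcccagccACCCTAgagaagtta
EGFR, base 5541: agaagctccACCCTAtcacctagc
TGFA, base 487: cacatgaagACCCTAgctttaaga
ERRFI1, base 493: ctcattggtACCCTAcgtgcctag

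A match of this word is a description of the letters only. Whether it plays a part in any of these changes was not tested.

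ERBB2 (ENSG00000141736), the family member with no known ligand of its own and the preferred partner of the others, was at 92.3 and 90.5 CPM in siNSUN2 libraries, against 70.6 and 68.9 CPM in siControl libraries. Both siNSUN2 libraries were higher than both controls (log2 fold change 0.39, SE 0.041, adjusted p = 3.89e-05). ERBB2 transcripts are the richest in G and C of the 10 genes (57.5%), and after each library was corrected for trends with GC content and transcript length the value was 0.029 (adjusted p = 0.6). The rise of ERBB2 therefore does not hold under that correction. ERBB2 also shares exon sequence with genes of the opposite strand, PGAP3 (16.5 and 17.9 CPM in siNSUN2, 10.3 and 10.4 CPM in siControl) and MIEN1 (11.5 and 11.2 CPM in siNSUN2, 17.1 and 18.6 CPM in siControl). The strand setting of the counting is not given in the sources used here, so reads of such neighbours cannot be told apart from those of ERBB2.

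ERBB3 (ENSG00000065361), a neuregulin receptor with a weak kinase that signals through its partners, was lowest of the 3 receptors. It had 19.2 and 20.6 CPM in siNSUN2 libraries, against 22.7 and 23.6 CPM in siControl libraries. The groups lay close together, and the fall was small (log2 fold change -0.23, SE 0.064, adjusted p = 0.0153). The call was lost without siNSUN2 replicate 1 (-0.18, adjusted p = 0.0888) or without siControl replicate 2 (-0.21, adjusted p = 0.0686), and the value was -0.36 (adjusted p = 0.00251) with GC and length trends taken off. In GENCODE 29 some ERBB3 exons overlap those of AC034102.2, a protein-coding gene on the same strand, which had 0 counts in every library. How reads in the shared sequence were treated is not given in the sources used here, so the level of ERBB3 is uncertain to that extent.

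Levels of different genes can be compared per length, here as CPM per kilobase of all annotated exons (CPM per kb), a length that understates genes with many isoforms. In siNSUN2 libraries EGFR made up 70.8% and 69.6% of the summed level of the 3 receptors, ERBB2 23.6% and 24.1%, and ERBB3 5.59% and 6.26%. In siControl libraries EGFR made up 81.4% and 81.6%, ERBB2 13.6% and 13.2%, and ERBB3 5.002% and 5.18%. The order EGFR, ERBB2, ERBB3 was the same in every library, with gaps wider than the spread between replicates. The ratio of ERBB2 to EGFR per kb, which needs no scaling between libraries, was 0.333 and 0.346 in siNSUN2 libraries, against 0.167 and 0.162 in siControl libraries. With the longest transcript as length, the ratio was 0.546 and 0.568 in siNSUN2 and 0.274 and 0.266 in siControl. These shares and ratios are not corrected for GC and length trends. With those trends taken off, the log2 fold change was 0.029 for ERBB2 and -0.69 for EGFR. Little of the change in the ratio then comes from ERBB2. Summed over the receptors, the level was 37.9 and 36.4 CPM per kb in siNSUN2 libraries, against 50.3 and 50.5 CPM per kb in siControl libraries.

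HBEGF (ENSG00000113070), whose product binds EGFR and ERBB4, was by far the most abundant ligand transcript. It was at 285 and 291 CPM in siNSUN2 libraries, against 138 and 145 CPM in siControl libraries. The groups were wide apart and each was tight. On the log2 scale HBEGF rose by 1.03 (SE 0.042, 95% interval 0.93 to 1.12, adjusted p = 1.49e-07), a rise to 2.04 times the siControl level, and it stayed between 0.93 and 1.05 under every alternative run.

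TGFA (ENSG00000163235), a ligand of EGFR alone, went the other way. It had 19.2 and 18.1 CPM in siNSUN2 libraries, against 31.6 and 31.7 CPM in siControl libraries, with no overlap and little spread. Its log2 fold change was -0.76 (SE 0.060, adjusted p = 5.59e-06), or 0.589 of the siControl level. The ratio of HBEGF to TGFA per kb was 24.3 and 26.5 in siNSUN2 libraries, against 7.15 and 7.49 in siControl libraries.

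NRG1 (ENSG00000157168), a neuregulin that binds ERBB3 and ERBB4, was the 1 gene that did not pass. It stood at 47.3 and 46.3 CPM in siNSUN2 libraries, against 47.3 and 48.2 CPM in siControl libraries. The siNSUN2 values lay just under the controls, with siNSUN2 replicate 1 and siControl replicate 1 almost level. The log2 fold change was -0.030 (SE 0.044, adjusted p = 0.62), with a 95% interval of -0.13 to 0.070, that is 0.914 to 1.05 times the siControl level.

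AREG (ENSG00000109321), a ligand of EGFR, was scarce. It had 238 and 188 counts (2.59 and 5.49 CPM) in siNSUN2 libraries, against 51 and 329 counts (1.20 and 1.55 CPM) in siControl libraries. Both siNSUN2 libraries were higher than both controls, but siNSUN2 replicate 2 stood well above siNSUN2 replicate 1. The log2 fold change of 1.52 (SE 0.43) passed narrowly (adjusted p = 0.0411), with a wide 95% interval of 0.37 to 2.68. It was 0.91 (adjusted p = 0.039) without siNSUN2 replicate 2, and it was not called without siControl replicate 1 (1.30, adjusted p = 0.253), without siControl replicate 2 (1.72, adjusted p = 0.204) or with GC and length trends taken off (1.57, adjusted p = 0.0672). The hg19 build is known to carry another near-identical copy of AREG, listed in RefSeq under the older name AREGB, so reads of AREG may be divided or lost and its level is uncertain.

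The library with the higher AREG level also held more of some markers of other cell types. Of 3 endothelial markers VWF and CDH5 were present, at 1.80 and 8.73 CPM and at 0.577 and 1.87 CPM in siNSUN2 replicates 1 and 2, while PECAM1 was at 0 in every library. The markers summed to 2.37 and 10.6 CPM in siNSUN2 libraries, against 0.395 to 0.635 CPM in siControl libraries. The pair of red cell markers, HBB and HBA2, summed to 0 in siNSUN2 replicate 1 and 2.89 CPM in siNSUN2 replicate 2, against 0 to 0.451 CPM in siControl libraries. The 5 leukocyte markers summed to 1.23 to 2.07 CPM in siNSUN2 libraries, against 0.729 to 0.941 CPM in siControl libraries. The 3 fibroblast markers summed to 3.01 to 3.33 CPM in siNSUN2 libraries, against 0.894 to 2.21 CPM in siControl libraries. COL1A1 made up most of that sum, at 2.92 and 3.30 CPM in siNSUN2 libraries, against 0.847 and 1.64 CPM in siControl libraries. COL3A1 was at 0 in both siNSUN2 libraries, against 0.024 and 0.541 CPM in siControl libraries, and DCN was below 0.1 CPM in every library. Their part in the AREG result was not tested.

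EREG (ENSG00000124882), which binds EGFR and ERBB4 and is the neighbour of AREG on chromosome 4, was scarcer still. It had 75 and 35 counts (0.817 and 1.02 CPM) in siNSUN2 libraries, against 23 and 79 counts (0.541 and 0.371 CPM) in siControl libraries. The siNSUN2 libraries were higher, at a depth of few reads. The log2 fold change of 1.04 (SE 0.37, adjusted p = 0.0427, 95% interval 0.19 to 1.88) was not called with any 1 library left out, at 0.73 to 1.23 (adjusted p = 0.058 to 0.276). Nor was it called by DESeq2 (1.01, adjusted p = 0.134) or with counts thinned to the shallowest library (0.87, adjusted p = 0.11). Every member, EREG included, was above the filter's 0.148 CPM in all 4 libraries.

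**Figure D2:**
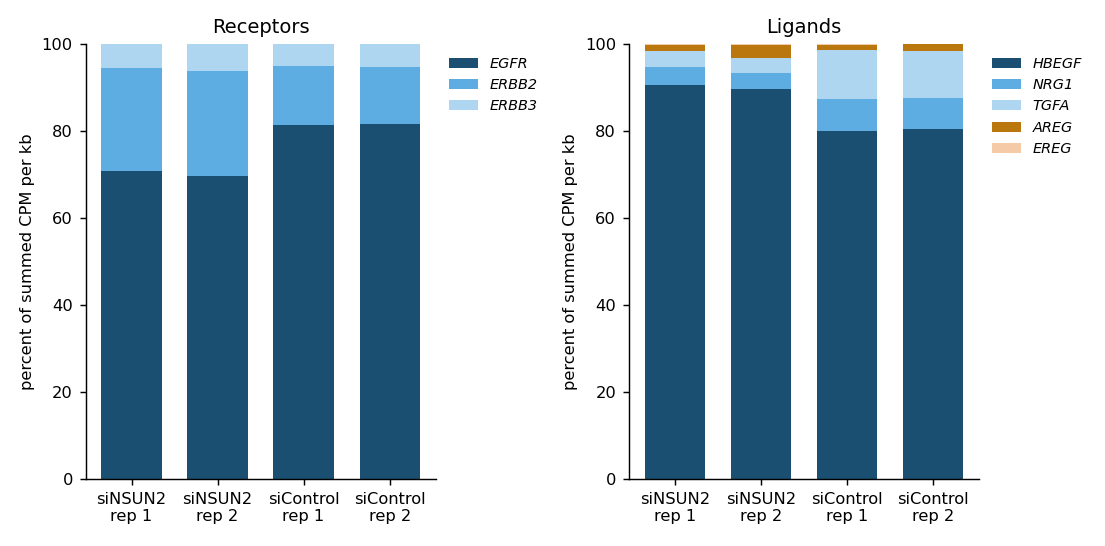
Share of each gene in the summed CPM per kb of the receptors (left) and of the 5 ligands (right), 1 bar per library, siNSUN2 libraries left of siControl libraries. ERBB2 takes 23.6% and 24.1% of the receptor level in siNSUN2 against 13.6% and 13.2% in siControl, and HBEGF 90.6% and 89.6% of the ligand level in siNSUN2 against 80.0% and 80.4% in siControl. The shares are not corrected for GC and length trends, and the rise of ERBB2 does not hold under that correction.

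Per kb, HBEGF made up 90.6% and 89.6% of the level of the 5 ligands in siNSUN2 libraries, against 80.0% and 80.4% in siControl libraries. TGFA made up 3.72% and 3.38% in siNSUN2 libraries, against 11.2% and 10.7% in siControl libraries. The 5 ligands summed to 104 and 108 CPM per kb in siNSUN2 libraries, against 57.0 and 59.6 CPM per kb in siControl libraries. In siControl libraries the order was HBEGF, TGFA, NRG1, AREG and EREG, and in siNSUN2 libraries NRG1 (4.18 and 4.09 CPM per kb) and TGFA (3.88 and 3.64 CPM per kb) had changed places by a narrow margin, with AREG (1.57 and 3.33 CPM per kb) close behind in replicate 2. With the longest transcript as length, NRG1 was above TGFA in both groups, so their order depends on the length used.

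The 3 ligand genes that rose are shown by the 250 bases before their RefSeq starts (GRCh38.p14, a different build from the hg19 of the counts), to see whether they hold common signal-responsive motifs. Of the 10 genes, ERBB3 and NRG1 had no entry in the promoter table. Motifs were searched on both strands: AP-1 (TGANTCA), the cAMP response element or CRE (TGACGTCA), the ATF4 composite site (TGATGNAA) and the TATA box (TATAAA). AREG, chr4:74444886-74445135 on the plus strand, has a CRE at bases -65 to -58 and a TATA box at -29 to -24, counting the last base printed as -1. EREG, chr4:74364895-74365144 on the plus strand, has a TATA box at -32 to -27, and HBEGF, chr5:140346604-140346853 on the minus strand, has none of these. The sequences run 5′ to 3′ in the direction of transcription, with matches in capitals.

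AREG: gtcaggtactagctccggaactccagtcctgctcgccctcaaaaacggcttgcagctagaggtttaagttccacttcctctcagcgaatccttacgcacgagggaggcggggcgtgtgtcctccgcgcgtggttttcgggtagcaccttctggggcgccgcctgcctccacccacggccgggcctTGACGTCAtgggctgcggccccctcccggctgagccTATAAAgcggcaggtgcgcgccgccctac
EREG: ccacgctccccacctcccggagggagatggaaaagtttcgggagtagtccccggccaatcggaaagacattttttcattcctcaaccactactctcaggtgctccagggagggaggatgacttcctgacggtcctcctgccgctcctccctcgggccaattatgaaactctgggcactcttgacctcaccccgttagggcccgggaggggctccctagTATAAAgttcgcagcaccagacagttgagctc
HBEGF: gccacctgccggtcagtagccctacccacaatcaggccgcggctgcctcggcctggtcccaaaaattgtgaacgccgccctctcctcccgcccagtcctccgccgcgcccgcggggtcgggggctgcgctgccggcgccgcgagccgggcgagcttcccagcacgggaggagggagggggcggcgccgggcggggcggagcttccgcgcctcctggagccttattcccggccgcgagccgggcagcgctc

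The CRE occurs in 1.65% of the 35116 windows of this kind, the TATA box in 10.7%, AP-1 in 6.57% and the ATF4 site in 3.14%. The letters searched for AP-1 allow any base in the middle, and ERBB2 has such a match, TGATTCA, at -222 to -216. The windows of EGFR, TGFA, ERRFI1 and LRIG1 hold none of the motifs. A match does not show that a factor binds there, and none of the motifs is in all 3 of these windows.

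ERRFI1 (ENSG00000116285), also known as MIG6, is a cytoplasmic protein that binds and blocks the kinase domain of EGFR and ERBB2, and ERK signalling is known to induce it. It had 417 and 437 CPM in siNSUN2 libraries, against 326 and 356 CPM in siControl libraries. All siNSUN2 values were higher, and the siControl libraries differed from each other by more than those of siNSUN2. On the log2 scale ERRFI1 rose by 0.32 (SE 0.051, adjusted p = 5.97e-04), and by 0.20 (adjusted p = 0.00226) without siControl replicate 1. Per kb, the ratio of ERRFI1 to EGFR was 3.71 and 4.12 in siNSUN2 libraries, against 1.90 and 2.06 in siControl libraries.

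LRIG1 (ENSG00000144749), a membrane protein that promotes the breakdown of ERBB receptors, had 347 and 126 counts (3.78 and 3.68 CPM) in siNSUN2 libraries, against 80 and 568 counts (1.88 and 2.67 CPM) in siControl libraries. The siNSUN2 libraries were close together and higher than both controls, which were further apart. LRIG1 rose by 0.70 on the log2 scale (SE 0.20, adjusted p = 0.0169). The call was not made without siNSUN2 replicate 1 (0.68, adjusted p = 0.104), without siNSUN2 replicate 2 (0.73, adjusted p = 0.0781) or without siControl replicate 1 (0.42, adjusted p = 0.177), nor with GC and length trends taken off (0.43, adjusted p = 0.123), with thinned counts (0.52, adjusted p = 0.131) or by DESeq2 (0.66, adjusted p = 0.0534). Some LRIG1 exons overlap those of SLC25A26 on the opposite strand, which had 15.4 and 15.6 CPM in siNSUN2 libraries and 16.0 and 16.5 CPM in siControl libraries.

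**Figure D3:**
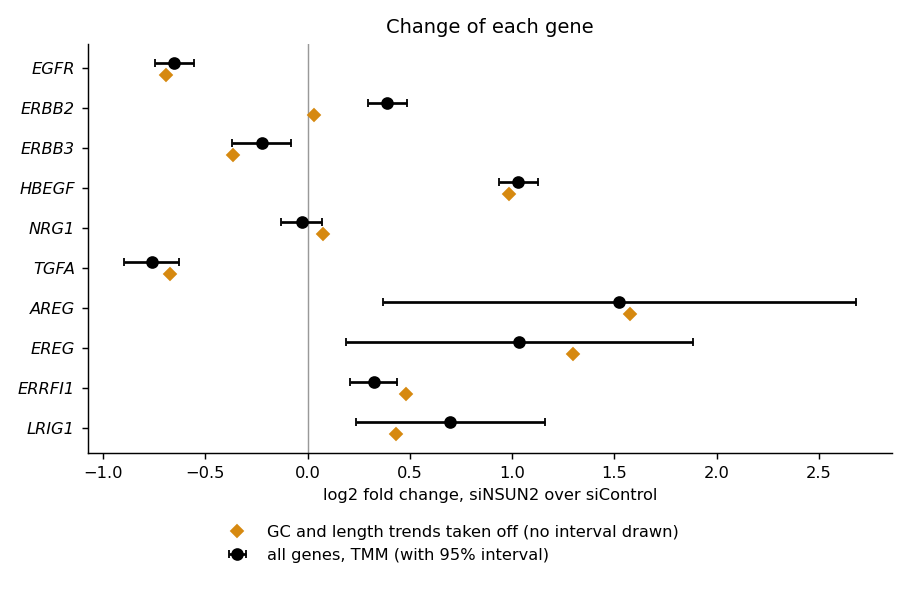
Log2 fold change of each gene, siNSUN2 over siControl, with its 95% interval (black), and the value with GC and length trends taken off (orange diamonds). The interval of NRG1 spans 0, those of AREG and EREG are the widest, and ERBB2 is at 0.39, and at 0.029 under the correction.

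**Figure D4:**
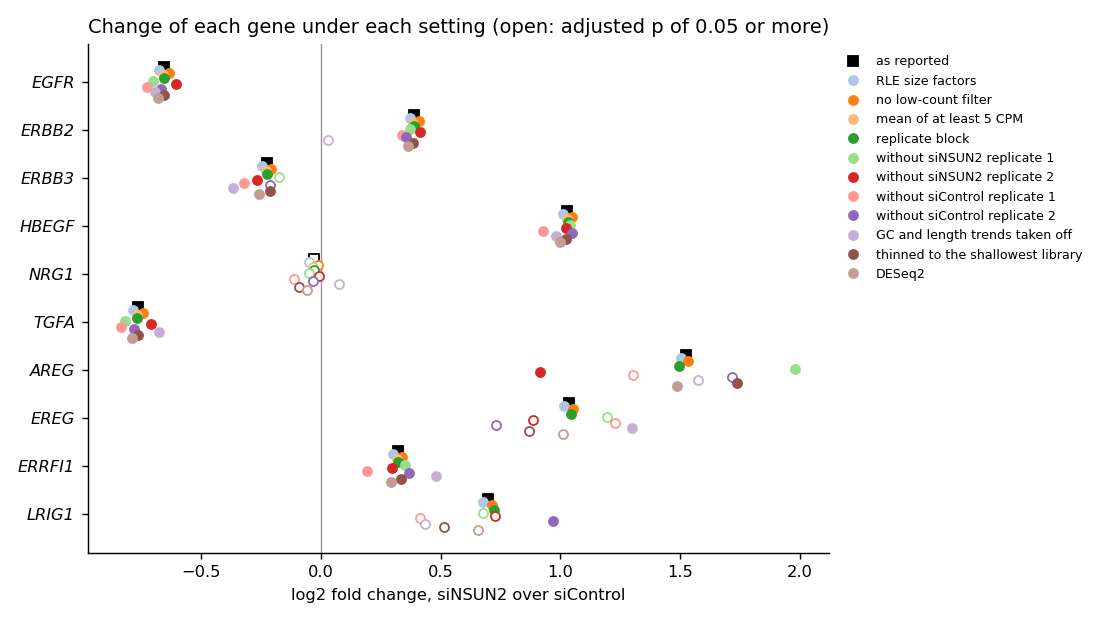
Log2 fold change of each gene as reported (black squares) and under each alternative (coloured points), filled where adjusted p is under 0.05. The values of EGFR, HBEGF and TGFA are filled throughout and close together, whereas EREG and LRIG1 are open under 6 alternatives each.

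Genes that act with these receptors were counted in lists chosen with earlier results of these data known. Of 85 such genes 78 were tested, 38 rose, 21 fell and 19 did not pass, and their median change was 0.15 on the log2 scale, beside 0.026 over all genes. Among all genes tested 52.6% were called, 27.1% as higher and 25.5% as lower in siNSUN2, and the counts of each list below stand beside these shares. Where a mean of at least 5 CPM was required, 74.5% of all genes were called, and of 74 genes of these lists 41 rose and 23 fell. Up to 3 called genes with the smallest p are named for each list, beside ADAM17, RHBDF2 and BTC, which were chosen after their values were seen.

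Of the other receptors and ligands, 3 of 7 were tested (ERBB4, BTC and NRG2), and EGF, EPGN, NRG3 and NRG4 were too low to test. ERBB4, the remaining ERBB receptor, fell: it had 42 and 21 counts (0.457 and 0.613 CPM) in siNSUN2 libraries, against 94 and 509 counts (2.21 and 2.39 CPM) in siControl libraries (log2 fold change -2.13, SE 0.26, adjusted p = 1.08e-04). NRG2, a neuregulin, was at 11.1 and 12.97 CPM in siNSUN2 libraries, against 8.47 and 9.53 CPM in siControl libraries (0.41, adjusted p = 0.00921). That call was lost without siNSUN2 replicate 2 (0.31, adjusted p = 0.0818) and without siControl replicate 1 (0.26, adjusted p = 0.0963), and the value was -0.12 (adjusted p = 0.397) with GC and length trends taken off. BTC, a ligand of EGFR and ERBB4, was at 3.23 and 3.15 CPM in siNSUN2 libraries and 3.65 and 3.95 CPM in siControl libraries (adjusted p = 0.21). The median of these 3 genes was -0.25.

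Of 7 tested genes for proteases that release the ligands and proteins that control them, 4 rose, 3 did not pass and 0 fell (median 0.55). ADAM12, a metalloprotease that can cut HBEGF, had 29.9 and 29.97 CPM in siNSUN2 libraries, against 8.73 and 8.26 CPM in siControl libraries (log2 fold change 1.82, adjusted p = 8.42e-08). RHBDF1, which encodes an iRhom that escorts ADAM17, had 41.2 and 42.9 CPM in siNSUN2, against 15.6 and 14.9 CPM in siControl (1.46). FRMD8, a partner of the iRhoms, had 59.7 and 59.2 CPM in siNSUN2, against 32.1 and 32.4 CPM in siControl (0.88). With GC and length trends taken off, RHBDF1 was at 0.90 and FRMD8 at 0.37, and 6 genes of the list rose and 1 fell. The gene that fell was RHBDF2, another iRhom gene (-0.69, adjusted p = 3.67e-05). Over all 16286 genes tested under that correction, 3517 rose and 3991 fell. Of the 78 tested genes of all these lists together, 37 rose and 20 fell under it. Without that correction RHBDF2 did not pass (-0.12, adjusted p = 0.081), with 29.4 and 29.3 CPM in siNSUN2, against 31.9 and 31.8 CPM in siControl. ADAM17, the chief protease of several EGFR ligands, had 119 and 123 CPM in siNSUN2, against 77.3 and 88.2 CPM in siControl (0.55, adjusted p = 4.88e-04). TIMP3 was too low to test.

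The 14 tested genes of other negative regulators held 7 that rose, 4 that fell and 3 that did not pass (median 0.18). The receptor phosphatase gene PTPRJ had 77.3 and 76.5 CPM in siNSUN2 libraries, against 35.98 and 34.6 CPM in siControl libraries (log2 fold change 1.13, adjusted p = 1.26e-07). PTPRK, another receptor phosphatase, rose by 0.69, with 113 and 106 CPM in siNSUN2 and 67.8 and 67.9 CPM in siControl. The phosphatase gene PTPN2 fell by 0.39 on the log2 scale, with 48.97 and 47.8 CPM in siNSUN2 and 64.3 and 62.6 CPM in siControl, and its value was -0.17 with GC and length trends taken off. Rises and falls of inhibitor genes thus stood side by side.

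Among 17 tested adaptors and proximal effectors there were 7 rises, 4 falls and 6 genes that did not pass (median -0.011). SOS1, an activator of RAS, had 45.01 and 41.97 CPM in siNSUN2 libraries, against 68.8 and 69.8 CPM in siControl libraries (log2 fold change -0.67, adjusted p = 3.14e-06). The docking protein gene GAB2 had 11.3 and 11.3 CPM in siNSUN2, against 4.07 and 4.46 CPM in siControl (1.40). The kinase gene SRC had 69.2 and 71.4 CPM in siNSUN2, against 49.2 and 50.96 CPM in siControl (0.49), and 0.053 (adjusted p = 0.36) with GC and length trends taken off.

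Uptake and sorting of the receptor was covered by 17 tested genes, with 9 rises, 5 falls and 3 that did not pass (median 0.15). RAB7A, a GTPase of late endosomes, had 133 and 129 CPM in siNSUN2 libraries, against 269 and 260 CPM in siControl libraries (log2 fold change -1.01, adjusted p = 1.37e-07). AP2B1, a subunit of the clathrin adaptor at the plasma membrane, had 323 and 312 CPM in siNSUN2, against 583 and 587 CPM in siControl (-0.88). HGS, which sorts ubiquitinated receptors at endosomes, had 184 and 181 CPM in siNSUN2, against 107 and 110.0 CPM in siControl (0.75), and 0.17 with GC and length trends taken off. The word ACCCTA is in the 3′ UTR of 6 of these 17 genes (35.3%, beside 23.0% of all genes). In the other pathway lists its share ran from 0% (proteases and their controllers) to 33.3% (other receptors and ligands). Of the 6 genes, RAB7A, AP2B1, USP8 (-0.43) and STAMBP (-0.14) fell and EPN1 (0.74) and STAM2 (0.17) rose. With GC and length trends taken off, STAMBP was at -0.073 (adjusted p = 0.204). Over all 2895 genes with the word, 1292 fell and 670 rose. The word was picked from these same libraries, so these counts are no separate evidence. The 3′ UTRs of these 6 genes ran from 1374 bases (RAB7A) to 15331 bases (USP8). The median was 3001 bases over all genes with the word and 1342 without it. USP8, STAMBP, EPN1 and STAM2 were named after their values were seen.

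Of the ERK target genes, which are often read as a sign of signalling downstream of the receptors, all 20 were tested, with 10 rises, 7 falls and 3 that did not pass (median 0.43). JUNB, a subunit of the AP-1 factor, had 74.9 and 75.1 CPM in siNSUN2 libraries, against 24.4 and 26.3 CPM in siControl libraries (log2 fold change 1.56, adjusted p = 6.05e-08). IER2, an immediate early gene, had 122 and 123 CPM in siNSUN2, against 63.99 and 65.4 CPM in siControl (0.92). ETV5, an ETS factor gene, had 22.4 and 21.1 CPM in siNSUN2, against 60.5 and 65.9 CPM in siControl (-1.54). With GC and length trends taken off, JUNB was at 0.97, IER2 at 0.41 and ETV5 at -1.53.

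**Figure D5:**
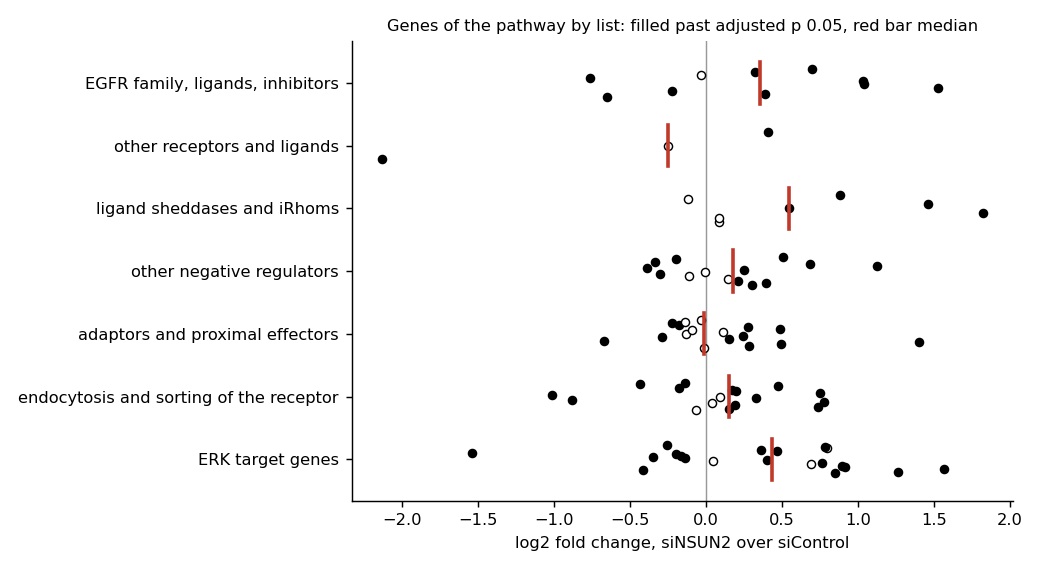
Log2 fold change, siNSUN2 over siControl, of each tested gene by list (points, filled past adjusted p 0.05) with the list's median (red bar). Every list holds genes on both sides of 0, and the sheddase list has no called gene below 0.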

How the data were processed

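Poly(A) RNA libraries were made with a stranded kit and sequenced as read pairs, per the labels' protocols. A single table deposited by the authors holds raw read counts for each Ensembl gene ID. The submitters' processing notes name HISAT2, HTSeq and build hg19. Tool versions, annotation and strand setting: not given in the sources used here. Groups came from the sample titles, and every column was used.

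The genes and lists were chosen with earlier results of these data known. All 16889 genes kept by filterByExpr (minimum count 10, by group) were fitted with edgeR 4.0.16 in R 4.3.3 (TMM, robust quasi-likelihood F-test, two-sided, no block), with Benjamini-Hochberg adjustment over all of them. Each SE is the log2 fold change over the root of F, and intervals are 95%. Within groups, counts varied beyond sampling noise (chi-square over its degrees of freedom was 13.5 in siNSUN2 and 20.5 in siControl). Genes named in lists were the up to 3 called with the smallest p. GENCODE 29 and RefSeq tables, both GRCh38, gave symbols (51537 of 62893 IDs), lengths, GC content and sequence through gene IDs. Alternatives were DESeq2 1.42.0, RLE factors, other filters, each library left out, a replicate block, loess trends (span 0.3) on GC content and length taken off as offsets and, added after seeing the data, thinned counts. Protein sequences were not used here. The value of 1 marker gene is not reported here.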

Additional observations from a re-analysis of the deposited data

How the results depend on the processing

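The number of the 10 genes called was 9, and 6 to 9 under the 11 alternatives (10 chosen with the design, 1 after seeing the data). It was 9 also with the replicate number as a replicate block, which changed no call among the 10 genes. Deviations of same-numbered libraries correlated at 0.065 over 9702 genes, so the numbers do not show a pairing. Over all genes 7508 to 9815 were called, against 8880, and of the other pathway genes 51 to 64, against 59. The share of all genes called was 52.6%. Under the alternatives it ran from 27.3% (no low-count filter) to 74.5% (mean of at least 5 CPM). With GC and length trends taken off, 3 of the 10 genes rose and 3 fell, beside 46.1% of all genes called. NRG1, which was not called, went to 0.075. EGFR, HBEGF, TGFA and ERRFI1 kept their direction and call in all 11. The calls of ERBB2 (1 alternative), ERBB3 (2), AREG (3), EREG (6) and LRIG1 (6) were lost in some, as given above. AREG, EREG and LRIG1 were not tested with a mean of at least 5 CPM required. Of the 7 members tested there, 3 rose and 3 fell, beside 74.5% of all genes called. The causes were not tested. With 1 library left out, its group's lone library is assumed to vary like the other group. Thinned to the shallowest library, EREG (0.87) and LRIG1 (0.52) were not called and AREG was (1.74, adjusted p = 0.0145, edgeR).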

Other observations

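The genes whose levels over the 4 libraries lay nearest to those of AREG and TGFA, the largest called rise and fall among the 10 genes, were found by the root mean square difference of centred log2(CPM + 0.5), among genes with average log2 CPM of at least 2. For TGFA these were NUDT21 (difference 0.0059; 259 and 246 CPM in siNSUN2, 423 and 427 CPM in siControl), ASPM (0.0089) and MYEOV (0.0093). For AREG they were IFI6 (0.23; 16.8 and 22.02 CPM in siNSUN2, 8.54 and 10.2 CPM in siControl), SCARA3 (0.24) and ESAM (0.25). The average log2 CPM of AREG itself was 1.37, so genes at its own level were not searched. With 4 libraries in 2 groups, many genes have a similar pattern.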
